A study of Mus musculus with 6 samples.

Results

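The expression of 10 genes for surface markers that are used to sort or rank blood stem and progenitor cells, outside the SLAM family of receptors, was examined in mouse haematopoietic stem cells (HSCs). The genes were Kit, Ly6a (the gene for Sca-1), Procr (CD201), Cd34, Flt3, Esam, Eng (endoglin, CD105), Alcam, Cd27 and Thy1. They were taken by symbol from the 49585 genes of the count tables, and all 10 had a row. The 6 libraries came from bone marrow of untreated C57BL/6 mice aged 8 to 16 weeks, with no genetic change named in the labels. Cells were sorted by flow cytometry as negative for lineage markers, CD48 and CD34 and positive for Kit, Sca-1, CD150 and CD201. They were then divided by high or low surface CD38, which gave 3 CD38-positive and 3 CD38-negative libraries. Each library was a pool of HSCs from 10 mice, and the libraries form pairs 1, 2 and 3 in the design text, with 1 pool of each population in a pair. A pool holds no information on single animals, and p-values measure the spread between pools.

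KIT is the receptor tyrosine kinase for stem cell factor, which HSCs need for their maintenance, and FLT3 is a related kinase that appears on multipotent progenitors as they lose long-term activity. Sca-1 and THY1 are small proteins held to the membrane by a lipid (GPI) anchor, while CD201 is the endothelial protein C receptor. CD34 is a sialomucin whose absence marks adult mouse HSCs, ESAM and ALCAM are adhesion molecules of the immunoglobulin superfamily, endoglin is a co-receptor for ligands of the TGF-beta and BMP family, and CD27 is a TNF receptor family member that binds CD70. Several of them are not confined to HSCs: endothelial cells also carry CD34, ESAM, endoglin and CD201, lymphocytes carry CD27 and THY1, and mast cells carry KIT.

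The libraries held between 16771180 and 18558610 reads on genes, so 3 reads stood for 0.162 to 0.179 CPM (counts scaled to the library total). Such limits cover counting error only. Markers of the labelled cell type were present: all 11 stem cell markers listed had reads in every library, Meis1 among them at a mean of 198 CPM. The libraries also held transcripts of other bone marrow cells although the sort removed lineage-positive cells. The 17 granulocyte and monocyte markers summed to between 83042 and 160421 CPM, led by S100a8 and Ngp at means of 42589 and 23568 CPM. In bulk libraries, fewer cells of a type and less RNA per cell cannot be told apart. Erythroid, megakaryocyte and stromal markers summed to 4614 to 10085, 161 to 256 and 27.7 to 170 CPM over the libraries. The labels name no batch other than the pairs.

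No member passed an adjusted p-value of 0.05 between the populations. In the edgeR quasi-likelihood test with pairs as a block, 0 of the 9 members tested were called, against 2 of 14785 genes (0.0135%). The smallest adjusted p-value among them was 0.893. The 10th member, Thy1, had too few reads to be tested. Kit, Ly6a and Cd27, 3 members, had an unadjusted p-value under 0.05, as 5.08% of all tested genes did. All 3 had lower fitted values in CD38-positive cells, as 2.61% of tested genes did at that level. In DESeq2, Ly6a and Cd27 were at that level too, but Kit had an unadjusted p-value of 0.187. Over the 9 members the median log2 fold change was -0.19, beside 0.00 over all tested genes, with 6 members lower and 3 higher. Ly6a and Cd27 were the 2 members with the same sign in all 3 pairs, a pattern shown by 24.5% of tested genes.

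**Figure D1:**
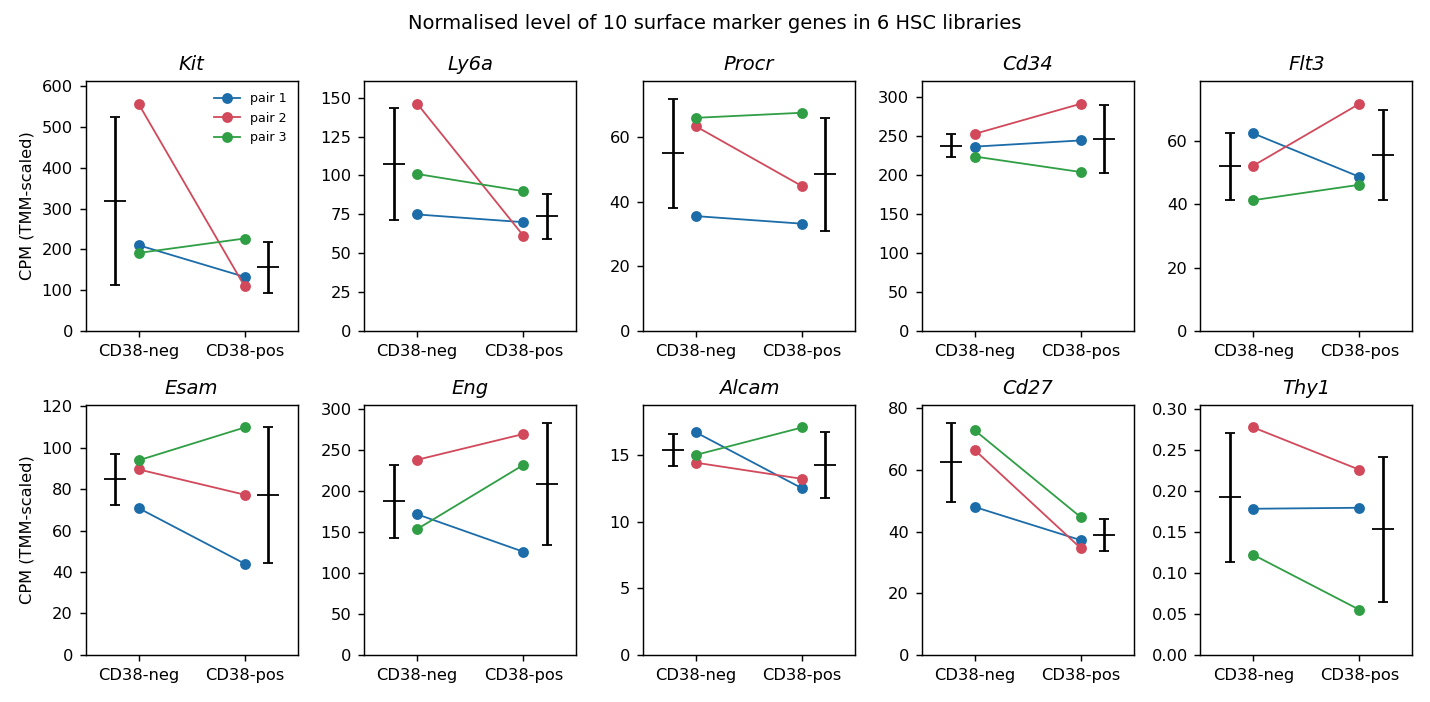
Normalised level (y axis, CPM after TMM scaling) of each of the 10 genes in the CD38-negative and CD38-positive library of pairs 1, 2 and 3 (points joined by lines); black bars are the mean and SD of 3 libraries. Kit reaches 556 CPM in the CD38-negative library of pair 2, and only the Cd27 points of the populations do not overlap.

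The receptor tyrosine kinases differed in how much they varied. Kit was at 133, 110 and 227 CPM in the CD38-positive pools of pairs 1, 2 and 3, and at 210, 556 and 191 CPM in the CD38-negative pools. The CD38-negative library of pair 2 stood far above the other 5, which overlapped between the populations. The mean level was 156 ± 61.9 CPM (SD, n = 3) with high CD38 against 319 ± 205 CPM (SD, n = 3) with low CD38, so the spread of the CD38-negative pools exceeded the difference. The fitted log2 fold change was -0.90 (SE 0.36), a level 1.87-fold lower in CD38-positive cells, with an unadjusted p of 0.0253 and an adjusted p of 0.925 in edgeR. The differences in pairs 1, 2 and 3 were -0.66, -2.34 and 0.24, and without pair 2 the fitted value was -0.22. Only 22 of 14785 tested genes, Kit included, had a difference in pair 2 as low as that of Kit. Across the 6 libraries the SD of Kit on the log2 scale was 0.81, higher than that of 97.7% of tested genes, against a median of 0.32.

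Kit lies at chr5:75574916-75656722 on the plus strand of GRCm38, and its sequence just before the gene is shown because Kit had the greatest range between libraries of the members tested. These are the bases of the RefSeq promoter window (GRCm38.p6, chr5:75574737-75574915, plus strand) that lie before the annotated gene. Capitals mark the 1 GC box match.
Kit: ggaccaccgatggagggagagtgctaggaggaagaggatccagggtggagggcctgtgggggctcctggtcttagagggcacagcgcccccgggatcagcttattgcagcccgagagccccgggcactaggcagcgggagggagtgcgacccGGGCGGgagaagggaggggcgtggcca
The windows of 250 bases before the RefSeq start were searched on both strands for 5 motifs. The GC box, searched as GGGCGG, was found in 32.7% of the 32851 windows in the table. Letters of the GATA motif, searched as AGATAA, stood in 9.99% of windows, and those of the RUNX motif, searched as TGTGGT, in 14.1%. The ETS motif was searched as CCGGAA and stood in 12.03% of windows, and the E-box as CAGCTG in 13.0%. The Kit window held the GC box and no other of these motifs. A match describes the letters only.

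Flt3 was at 48.6, 71.6 and 46.1 CPM in the CD38-positive pools of pairs 1, 2 and 3, and at 62.3, 52.1 and 41.3 CPM in the CD38-negative pools. The values overlapped, with the highest in the CD38-positive library of pair 2. Its log2 fold change was 0.09 (SE 0.21, adjusted p = 0.970 in edgeR), and it was 0.31 to -0.11 when a pair was left out. An antisense gene, Gm26597, lies over the Flt3 locus and had 39 reads in all, against 5572 for Flt3.

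Ly6a, the gene of a GPI-anchored marker, had its highest and lowest values where Kit did. It was at 70.0, 61.4 and 89.9 CPM in the CD38-positive pools of pairs 1, 2 and 3, and at 75, 146 and 101 CPM in the CD38-negative pools. Both extremes were in pair 2, and each CD38-positive library was below its partner. The log2 fold change was -0.50 (SE 0.23, unadjusted p = 0.0497, adjusted p = 0.926 in edgeR), with pair differences of -0.10, -1.24 and -0.17. Without pair 2 it was -0.15. Ly6a belongs to a cluster of similar Ly6 genes on chromosome 15, and how reads that fit several of them were counted is not given in the sources used here.

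Because both products were selected for in the sort, Kit and Ly6a reads were also compared within each library, which does not depend on scaling. There were 1.90, 1.79 and 2.52 Kit reads per Ly6a read in the CD38-positive pools of pairs 1, 2 and 3, and 2.81, 3.81 and 1.90 in the CD38-negative pools. The ratio was lower in CD38-positive cells in pairs 1 and 2 and higher in pair 3. The mean log2 difference was -0.41 ± 0.76 (SD, n = 3 pairs). Its exact permutation p, two-sided, was 0.5, and 3 pairs cannot give less than 0.25.

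Thy1 was close to the limit of detection. Its reads numbered 3, 4 and 1 in the CD38-positive pools of pairs 1, 2 and 3, and 3, 5 and 2 in the CD38-negative pools. Of its 18 reads, 8 were in CD38-positive libraries (44.4%, 95% Clopper-Pearson interval 21.5% to 69.2%), so no difference was detectable at this depth. That interval takes single reads as units and covers counting error only. It leaves out the pairs, the spread between pools and the library totals. Of the 12 T and NK cell markers listed, 10 had reads in every library.

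Cd27 was the member with the smallest p-value and the only tested member whose populations did not overlap, as 6.53% of tested genes did not. It was at 37.2, 34.6 and 44.7 CPM in the CD38-positive pools of pairs 1, 2 and 3, and at 48.0, 66.5 and 72.9 CPM in the CD38-negative pools. All 3 CD38-negative libraries were above all 3 CD38-positive ones. The means were 38.8 ± 5.22 and 62.5 ± 12.9 CPM (SD, n = 3), which the fit gave as a 1.59-fold lower level in CD38-positive cells (log2 fold change -0.67, SE 0.20). The unadjusted p was 0.00495 and the adjusted p 0.893 in edgeR, and the differences in pairs 1, 2 and 3 were -0.36, -0.93 and -0.70. When a pair was left out the value stayed between -0.82 and -0.55.

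Transcripts of B and plasma cells moved with Cd27. The 10 markers listed, all with reads in every library, summed to 981, 371 and 516 CPM of library totals in the CD38-positive pools of pairs 1, 2 and 3. The sums were 1683, 1313 and 2748 CPM in the CD38-negative pools, so these sums did not overlap either. Ighm and Igkc led the list at means of 440 and 434 CPM. The 12 T and NK cell markers, led by Nkg7 and Klrb1c at means of 197 and 13.6 CPM, summed to 156 to 318 CPM in CD38-positive and 210 to 300 CPM in CD38-negative libraries, and these ranges overlapped. Nkg7 alone made up most of the T and NK cell sum in every library. The T cell genes Cd3e, Cd3d and Cd3g were at means of only 0.068, 1.17 and 0.79 CPM, and Lck and Cd4 at 9.63 and 4.86 CPM. CD27 is carried by B, plasma, T and NK cells, and the part of those cells in the Cd27 difference was not tested.

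Cd27 lies at chr6:125232622-125237010 on the minus strand. The 250 bases before its RefSeq start (GRCm38.p6, chr6:125237028-125237277, minus strand) are given because Cd27 had the smallest p-value of the members. No base is in capitals, since none of the 5 motifs was found.
Cd27: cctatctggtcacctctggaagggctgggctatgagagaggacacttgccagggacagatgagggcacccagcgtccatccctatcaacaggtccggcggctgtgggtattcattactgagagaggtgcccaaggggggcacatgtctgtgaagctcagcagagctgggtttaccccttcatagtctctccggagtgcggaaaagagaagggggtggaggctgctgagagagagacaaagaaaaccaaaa
RefSeq promoter windows were at hand for 7 of the 10 members.

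**Figure D2:**
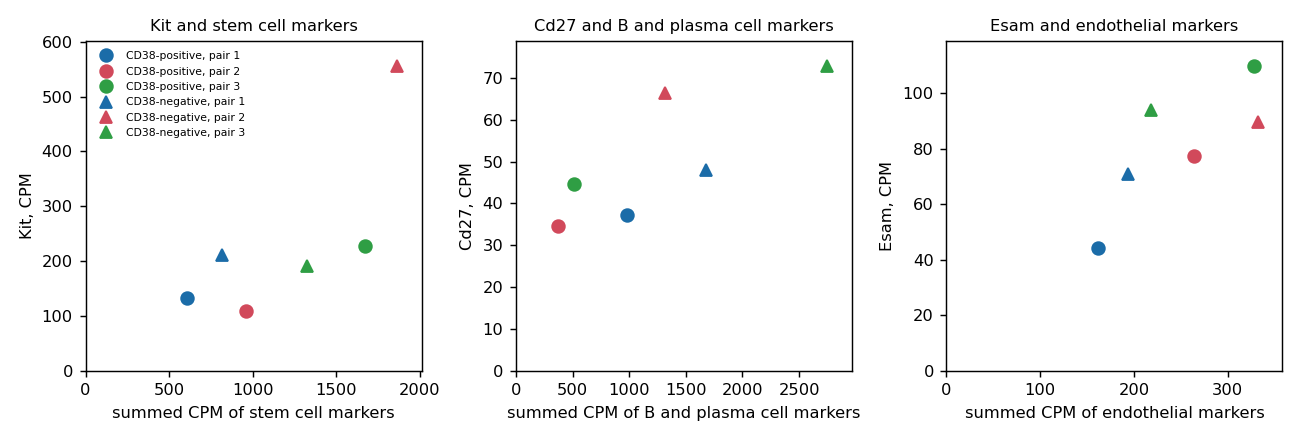
Level of Kit, Cd27 and Esam (y axes, CPM after TMM scaling) against the summed CPM of library totals of stem cell, B and plasma cell, and endothelial markers (x axes) in the 6 libraries; circles are CD38-positive, triangles CD38-negative, colours the pairs. The 3 CD38-negative libraries lie to the right of the 3 CD38-positive ones for the B and plasma cell sum alone.

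In each pair, the library with more Kit also had the higher sum of the 11 stem cell markers. That sum was 608, 960 and 1673 CPM of library totals in the CD38-positive pools of pairs 1, 2 and 3, and 816, 1861 and 1326 CPM in the CD38-negative pools. The highest sum was in the library with the most Kit, while the next highest, CD38-positive replicate 3, had Kit at 227 CPM. The 8 mast cell and basophil markers, led by Prss34 and Cpa3 at means of 232 and 141 CPM, summed to 498 CPM in the library with the most Kit, within the range of 334 to 912 CPM over all libraries. Mcpt4, a mast cell protease gene, had no read in any library, which allows up to 3 reads in each. The part of the number of stem cells in the Kit level was not tested.

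Procr and Esam, both also endothelial genes, followed each other across libraries. Procr, the gene for the protein C receptor that was selected for in the sort, was at 33.2, 44.8 and 67.5 CPM in the CD38-positive pools of pairs 1, 2 and 3, and at 35.5, 63.3 and 65.9 CPM in the CD38-negative pools. Both libraries of pair 1 were the lowest, and the populations overlapped. Its log2 fold change was -0.19 (SE 0.20, adjusted p = 0.943 in edgeR), and it was -0.044 without pair 2 and -0.30 without pair 3. Esam was at 44.1, 77.3 and 110 CPM in CD38-positive replicates and at 70.9, 89.6 and 93.9 CPM in the CD38-negative pools. Its log2 fold change was -0.22 (SE 0.21, adjusted p = 0.936 in edgeR), and the sign depended on pair 1, without which it was 0.01.

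The 6 libraries stood in the same order for Procr and Esam. Pearson's r of log2 CPM was 0.89 (exact permutation p = 0.00139, 0.05 after Benjamini-Hochberg adjustment over 36 pairs of members). Spearman's rho was 1 (exact permutation p = 0.00278, adjusted 0.1). Without the 2 libraries of pair 1, which were farthest from the median of Procr, r was 0.87 over 4 libraries. For Kit and Ly6a r was 0.93 (exact permutation p = 0.0111, adjusted 0.2) and rho was 0.83 (exact permutation p = 0.0583, adjusted 0.581). Without the 2 libraries of pair 2 the r of Kit and Ly6a was 0.56, so that relation rested mainly on them. Libraries of a pair are not independent, and a pair holds only 2, too few for a correlation within it. Within pairs, Procr and Esam had the same sign of difference in all 3, and Kit and Ly6a in pairs 1 and 2.

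**Figure D3:**
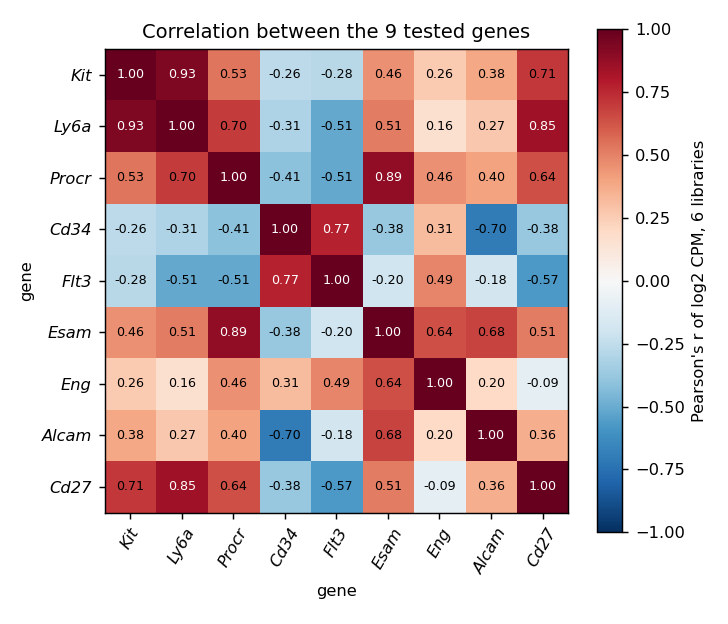
Pearson's r of log2 CPM across the 6 libraries for each pair of the 9 tested genes (colour scale and printed values; both axes list the genes). Kit with Ly6a (0.93) and Procr with Esam (0.89) have the highest values, and Cd34 with Alcam (-0.70) the lowest.

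Of 12 endothelial markers listed, 11 had reads in every library. They summed to 162, 264 and 329 CPM of library totals in the CD38-positive pools of pairs 1, 2 and 3, and to 194, 332 and 218 CPM in the CD38-negative pools. Pecam1 and Tie1, which HSCs also transcribe, were the highest, each at a mean of 56 CPM. Pair 1 had the lowest sums, as it did for Procr and Esam, and in each pair the library with the higher sum also had more Esam. Within the list, and singled out after their values were seen, the endothelial genes Cldn5, Ramp2 and Stab2 had more reads in the CD38-positive library of every pair. Cldn5 had 122, 181 and 334 reads in the CD38-positive pools of pairs 1, 2 and 3, against 24, 84 and 155. Ramp2 had 40, 111 and 90 reads against 11, 22 and 16, and Stab2 56, 74 and 104 against 37, 36 and 43. Pecam1, Flt4 and Cdh5 also had more there in every pair, but the rest of the list was mixed. Emcn, Tie1 and Tek had fewer reads in the CD38-positive library of pairs 1 and 2 and more in pair 3. Kdr had fewer in pair 2, and Plvap and Egfl7 in pair 1. Cdh5, the endothelial cadherin gene, had 0 to 12 reads a library. The part of endothelial cells in the levels of Procr, Esam, Eng and Cd34 was not tested.

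Eng was at 126, 270 and 232 CPM in the CD38-positive pools of pairs 1, 2 and 3, and at 172, 238 and 154 CPM in the CD38-negative pools. The populations overlapped and the pairs disagreed, with differences of -0.44, 0.18 and 0.59. Its log2 fold change of 0.11 (SE 0.22, adjusted p = 0.966 in edgeR) became -0.13 without pair 3. Eng shares 61 exon bases with Fpgs on the other strand, a gene with 3436 reads in all against 20747 for Eng. Alcam was the steadiest member with Cd34, at 12.5, 13.2 and 17.1 CPM in CD38-positive and 16.7, 14.5 and 15 CPM in CD38-negative replicates 1, 2 and 3. Its log2 fold change was -0.12 (SE 0.25, adjusted p = 0.966 in edgeR) and 0.03 without pair 1.

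Cd34, whose product the sort selected against, had abundant transcripts, and the cell types they came from were not tested. It was at 244, 291 and 203 CPM in the CD38-positive pools of pairs 1, 2 and 3, and at 236, 252 and 223 CPM in the CD38-negative pools. The populations overlapped over a range of 1.43-fold, and the SD on the log2 scale, 0.17, was higher than that of 12.6% of tested genes. The log2 fold change was 0.04 (SE 0.19, adjusted p = 0.982 in edgeR), and -0.06 without pair 2. Cd34 shares 148 of its 7290 exon bases with the antisense gene Gm16897, which had 1756 reads in all against 25045 for Cd34. Without a known strand setting, reads within the shared bases cannot be assigned to either gene.

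Reads of Cd34 were set against those of Procr, whose product was selected for. There were 7.34, 6.49 and 3.02 Cd34 reads per Procr read in the CD38-positive pools of pairs 1, 2 and 3, and 6.64, 3.99 and 3.39 in the CD38-negative pools. The mean log2 difference was 0.23 ± 0.44 (SD, n = 3 pairs, two-sided exact permutation p = 0.75), so the mean was smaller than the SD of the pairs. This test cannot give a p under 0.25 with 3 pairs, so it could not have shown a difference. Pair 3 had the lowest ratios in both populations.

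**Figure D4:**
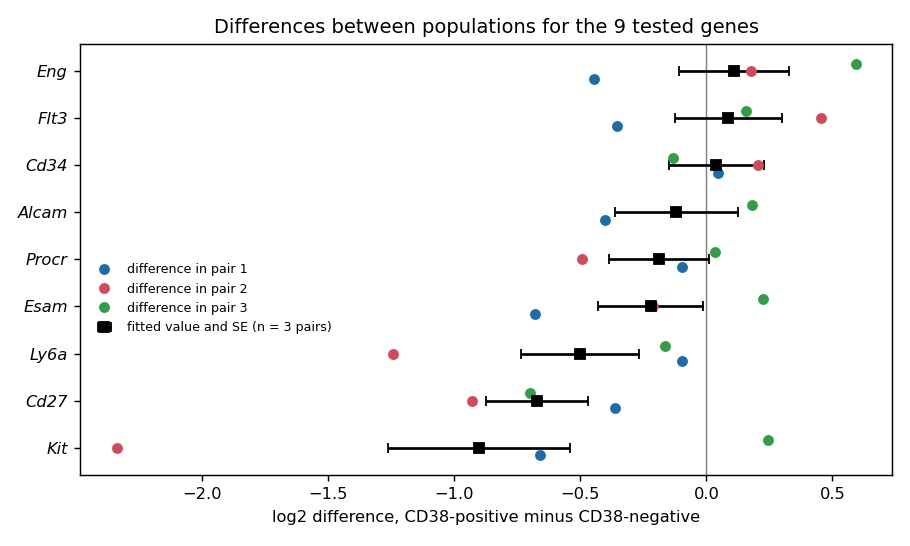
Log2 difference, CD38-positive minus CD38-negative (x axis), for the 9 tested genes: black squares are the fitted value with its SE from the model over 3 pairs, coloured points the differences in single pairs. All 3 points lie below 0 for Cd27 and Ly6a, and Kit spans -2.34 to 0.24.

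Levels of different genes were compared per kilobase of annotated exon. Ly6a was the highest at 75.1 ± 25.5 CPM per kb (SD over 6 libraries), followed by Eng at 49.0 ± 13.9. Cd34, Esam, Kit, Procr and Cd27 came next, at 33.1 ± 4.05, 28.2 ± 7.88, 26.7 ± 18.2, 25.5 ± 7.74 and 21.8 ± 6.72 CPM per kb. The ranges of neighbours in this order overlapped from Ly6a down to Cd27, so their order is not fixed by these libraries. Kit was above Procr in only 2 of 6 libraries. Flt3 at 8.69 ± 1.83, Alcam at 2.09 ± 0.257 and Thy1 at 0.0579 ± 0.0260 CPM per kb each lay below the gene before it in 6 of 6 libraries, with no overlap. By this measure Cd34, whose product was selected against, was at or above 87.8% of tested genes, and Procr, whose product was selected for, at or above 84.6%. Flt3 was at or above 65.7%.

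**Figure D5:**
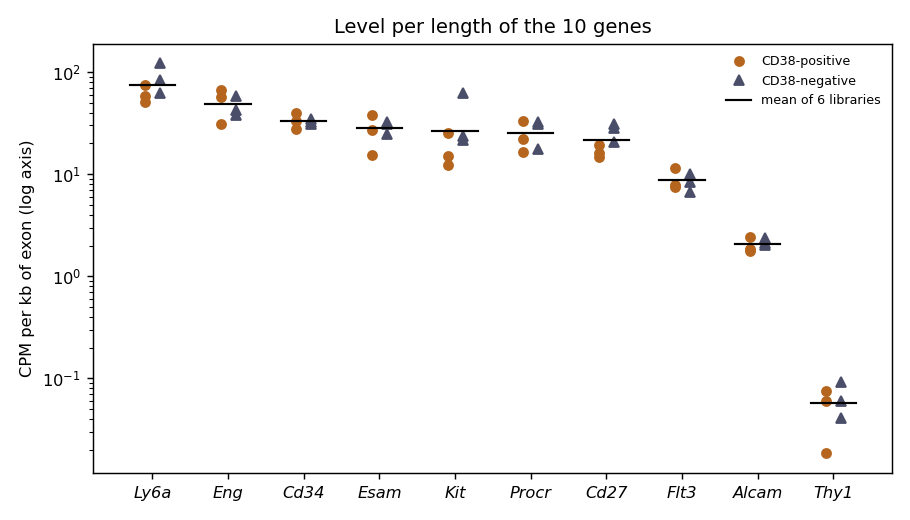
CPM per kb of merged exon (y axis, log scale) for the 10 genes in order of their mean; circles are CD38-positive and triangles CD38-negative libraries, lines the mean of 6 libraries. Ly6a is highest and Thy1 lowest, at means of 75.1 and 0.0579 CPM per kb.

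The other genes whose products set the gates are given for comparison. Slamf1 (CD150, a SLAM receptor selected for) had a log2 fold change of 0.45 (SE 0.23), and Cd48 (selected against) one of 0.00 (SE 0.24), at means of 29.0 and 81.6 CPM over the 6 libraries. Cd38 had 0.76 (SE 0.23). By p-value Cd38 was at rank 75 of the 14785 tested genes and Cd27 at rank 80, both with an adjusted p of 0.893 in edgeR.

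Genes of the pathways around the members were read from the same test, and none of them passed the adjusted threshold. Of 39 genes of KIT and FLT3 signalling, 38 were tested, with 18 higher, 20 lower and a median log2 fold change of 0.00, which spanned -0.093 to 0.086 when pairs were left out. At an unadjusted edgeR p under 0.05 there were 2 higher and 1 lower, beside 5.08% of all tested genes in either direction. Csf1r, the receptor for macrophage colony-stimulating factor and a relative of KIT, had 0.68 (SE 0.21), and the MAP kinase kinase gene Map2k1 had 0.49 (SE 0.22). Spred1, an inhibitor of RAS signalling, had -0.78 (SE 0.25) and was lower in all 3 pairs, and the kinase gene Lyn had 0.49 (SE 0.24). Among Ly6 family and GPI anchor genes, 15 of 33 tested were higher and 18 lower, with a median of -0.04, between -0.080 and -0.0016 when pairs were left out. Pgap3, an enzyme gene of GPI anchor remodelling, had -1.998 (SE 0.54) at a mean of only 0.527 CPM in CD38-positive and 2.33 CPM in CD38-negative libraries, and Ly6d had -0.81 (SE 0.35). Ly6g, a neutrophil gene of the family, and Piga, an enzyme gene of the first step of anchor synthesis, had 0.32 and 0.33. In the Ly6 and GPI anchor list, 0 higher and 2 lower genes had an unadjusted edgeR p under 0.05.

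The pathways of the other members gave values of similar size. Of 16 CD27 and NF-kB genes tested, 12 were higher and 4 lower (median 0.14, and 0.055 without pair 3), and 0 had an unadjusted edgeR p under 0.05. The smallest p-values were those of the adaptor gene Traf3 at 0.42 and the kinase genes Chuk at -0.35 and Ikbkb at 0.25, and of Rela, an NF-kB subunit gene, at 0.26. Of 12 protein C and thrombin pathway genes tested, 9 were higher (median 0.10), with 1 higher and 0 lower at an unadjusted edgeR p under 0.05. That median was 0.20 without pair 1, 0.17 without pair 2 and -0.019 without pair 3. F3, the tissue factor gene, had 1.69 (SE 0.54) from means of 1.89 and 0.588 CPM, and F2, Gas6 and F2rl3 had 1.09, 0.40 and -0.36.

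Of 18 endoglin and BMP genes tested, 4 were higher and 14 lower, with a median of -0.22. There were 0 higher and 1 lower at an unadjusted edgeR p under 0.05. In pairs 1, 2 and 3 the median was 0.08, -0.61 and -0.03, so pair 2 set it, and without that pair the fitted median was 0.046 (-0.35 without pair 1). The receptor genes Tgfbr1, Tgfbr3 and Tgfbr2 had -0.65, -0.52 and -0.42, while Acvrl1, the endothelial receptor that works with endoglin, had 0.55 and was higher in all 3 pairs. Of 14 relatives of ESAM, ALCAM and CD34 tested, 8 were higher and 6 lower (median 0.27, but 0.16 without pair 2 and -0.0044 without pair 3). There were 2 higher and 1 lower at an unadjusted edgeR p under 0.05, beside 5.08% of all tested genes. Jam2, a junctional adhesion molecule gene, was at 21.3 ± 9.84 and 10.2 ± 2.35 CPM (SD, n = 3), with a fitted log2 difference of 0.99 (SE 0.25, adjusted p = 0.695 in edgeR), and was higher in all 3 pairs. Its relatives Jaml and F11r had 0.66 and -0.46, and the sialomucin gene Podxl had -0.99 (SE 0.48) with a pair of opposite sign. Of 20 progenitor and lineage entry genes, 15 were higher and 5 lower (median 0.13), with 1 higher and 0 lower at that unadjusted level. Csf1r again had the smallest p-value, and Dntt and Cd24a had 0.42 and 0.51. The pair medians of that list were 0.37, 0.25 and -0.34, and its fitted median was 0.023, 0.070 and 0.39 without pairs 1, 2 and 3.

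The genes whose pattern was most like that of a member were sought by Pearson's r of log2 CPM over the 6 libraries, among genes with a mean of at least 10 CPM. With 8736 genes compared over 6 libraries, values near 1 are a description only. For Kit they were Fam84b, Parp11 and AU040320, at 0.99, 0.99 and 0.99, and for Ly6a Sept1, Med19 and Dnajc18, at 0.999, 0.997 and 0.996. Procr was closest to Mmgt2, 9130019O22Rik and Susd3, and Esam to Csgalnact1, Pcbd1 and Chrnb1, all at 0.99. For Cd27 they were Lat, an adaptor gene of T cell receptor signalling, at 0.99, Rpl32 at 0.99 and Gsta4 at 0.98. Cd34 was closest to Gm44170, Cdk4 and Mad2l2 at 0.997, 0.99 and 0.99, and Flt3 to Rpl14, Clstn1 and Dis3l2 at 0.997, 0.99 and 0.99. Eng was closest to Exd2, Smox and Fbxo32, at 0.995, 0.99 and 0.99. Alcam had the least close neighbours, with Tiparp, Arhgap18 and Nlrc5 at 0.96, 0.93 and 0.92.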

How the data were processed

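Raw read counts per Ensembl gene were deposited by the authors for each of the 6 libraries, 49585 genes each. The submitters' processing notes name cutadapt, STAR, HTSeq 0.6.1p1 and GRCm38; strand setting, overlap handling and annotation release are not given in the sources used here. Symbols matched 49326 identifiers. Exon lengths and positions came from GENCODE M21 (GRCm38), promoter windows from RefSeq (GRCm38.p6).

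In R 4.3.3, genes were filtered with filterByExpr (14785 kept), scaled by TMM and tested with edgeR 4.0.16 (quasi-likelihood, pair plus population, Benjamini-Hochberg, threshold 0.05). CPM values were computed with the same scaling. Single-library log2 values used a pseudocount of 0.5 CPM. The design text states the pairs; within a pair, the libraries' departures from the mean of their population had correlations of 0.34, 0.12 and 0.24. Intervals are 95%.

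On simulated data for this comparison (14785 genes), 52 of 100 genes changed by 2-fold and 95 of 100 changed by 4-fold were called, with 19 unchanged genes called. The changed genes were drawn only from genes above a minimum mean count, so these shares do not cover genes with few reads. Alternatives used DESeq2 1.42.0, limma-voom 3.58.1, other scalings and filters, no block, and leaving out pairs. The members and lists were chosen with earlier results of these data known. Named were all members, the other gate genes, up to 4 genes per list by smallest p-value, the 2 highest and any unread markers of each cell type used, and the 3 most correlated genes per member. Of the genes this rule names, 2 are not reported here.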

Additional observations from a re-analysis of the deposited data

How the results depend on the processing

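Of 90 alternative values for the 9 tested members, 83 kept their direction and side of the threshold, 2 moved past it (both for Kit) and 5 changed sign. The number of members past the threshold, 0, became 1 with no filter on low counts, where Kit had a log2 fold change of -0.90 and an edgeR adjusted p of 0.026 (range over all its alternatives 0.026 to 1), and with a pair left out it lay between 0 and 1 (Kit without pair 3, -1.50, adjusted p = 0.0338); the cause was not tested. With each pair left out in turn the log2 fold change spanned -1.50 to -0.22 for Kit, -0.71 to -0.15 for Ly6a, -0.30 to -0.044 for Procr, -0.056 to 0.13 for Cd34, -0.11 to 0.31 for Flt3, -0.45 to 0.0074 for Esam, -0.13 to 0.39 for Eng and -0.27 to 0.030 for Alcam. The number of members at an unadjusted p under 0.05 ranged from 1 to 3. The difference in the Cd34 to Procr ratio ranged from -0.011 to 0.42 and the median of the Ly6 and GPI anchor list from -0.080 to -0.0016.

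Over all genes, the 2 past the threshold became 0 without the replicate block (417 at an unadjusted p under 0.05), 0 with unscaled totals (595), 11 with DESeq2, 7 with DESeq2 size factors, 13 with a mean of at least 10 counts, 80 with no filter, and 2 to 41 when a pair was left out. Without the replicate block Kit had -1.03 and Cd27 -0.68, each with an edgeR adjusted p of 0.994, and no call of a member changed. A gene with no read in a library may still have stood at up to 3 reads there, a limit that covers counting error only.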
